A study of Mus musculus with 2 samples.

Results

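The 7 genes Atoh7, Neurog2, Olig2, Neurod1, Neurod4, Ptf1a and Bhlhe22 encode basic helix-loop-helix (bHLH) transcription factors of the developing retina. They were taken by gene symbol from the 31053 genes counted, and each symbol matched 1 gene. All were detected in both libraries, from 2251 unique molecular identifiers (UMIs) for Bhlhe22 to 227273 UMIs for Atoh7 over all kept cells. A UMI marks 1 captured transcript, so that PCR copies are counted once.

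Single-cell RNA-seq (10x Genomics, 3′ tags) was run on mouse eye cups at e15.5 to follow the developing eye when the transcription factor MYRF is lost. The control library was Myrf fl/fl, in which both Myrf alleles carry loxP sites. The mutant library was Rx>cre Myrf fl/fl, which carries the same floxed alleles and a Cre recombinase driven from Rx sequences, active in the early eye field that forms both the neural retina and the retinal pigment epithelium (RPE). Each genotype gave 1 library from 3 pooled eye cups, so embryos cannot be told apart within a library and no difference between genotypes has a replicate check.

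Proneural bHLH factors pair with broadly expressed E proteins, bind E-box sequences in DNA and drive progenitors out of the cell cycle towards neuronal fates. Dividing retinal progenitors express Notch effectors of the Hes family that repress these genes. Atoh7 is required for ganglion cell formation, Neurog2 acts in neurogenic progenitors, and Olig2 marks progenitors in their last divisions. Neurod1 and Neurod4 act in photoreceptor and amacrine development, Ptf1a directs amacrine and horizontal fates, and Bhlhe22 acts as a repressor in retinal interneurons.

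The stretch of the coding sequence that specifies part of the basic, DNA-contacting region is shown to compare the members with each other. Codons in capitals encode the same residue in all 7 members, and each stretch is 30 bases on the coding strand.
Atoh7: AACgcgCGCGAGCGGcgcCGCATGcagggg
Neurog2: AACaacCGCGAGCGCaacCGCATGcacaac
Olig2: AACagcCGCGAACGCaagCGCATGcacgac
Neurod1: AACgccCGCGAGCGGaacCGCATGcacggg
Neurod4: AATgctAGAGAACGGaccCGGATGcatggc
Ptf1a: AATgtgCGAGAGCGGcgcCGCATGcagtcc
Bhlhe22: AACgctCGCGAGCGCcggAGGATGcacgac

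Each stretch was located by a search for the residues NxRERxRM followed by H or Q, where x is any residue. The 6 of 10 codons that encoded the same residue in every member were thus set by the search. Of those 6, 1 also had the same bases throughout, and 13 of the 30 bases were shared by all 7. Identity between pairs ran from 56.7% to 86.7%, with a median of 66.7%, and is raised by the same search. On GRCm38 (mm10), all stretches were exonic and coding. They lay at chr10:63100294-63100323 (+) in exon 1 of Atoh7 and at chr3:127634080-127634109 (+) in exon 2 of Neurog2. The Olig2 stretch was at chr16:91226739-91226768 (+) in exon 2, that of Neurod1 at chr2:79454690-79454719 (-) in exon 2, and that of Neurod4 at chr10:130271098-130271127 (-) in exon 2. For Ptf1a it was at chr2:19446356-19446385 (+) in exon 1, and for Bhlhe22 at chr3:18055451-18055480 (+) in exon 1. Atoh7 (ENSMUSG00000036816) and Bhlhe22 (ENSMUSG00000025128) are single-exon genes, and Ptf1a (ENSMUSG00000026735) is the member with coding sequence in both of its exons. The identifiers of the other 4 are ENSMUSG00000027967 (Neurog2), ENSMUSG00000039830 (Olig2), ENSMUSG00000034701 (Neurod1) and ENSMUSG00000048015 (Neurod4).

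Promoter windows of 300 bases from RefSeq (GRCm38.p6) were given for 6 members, with 7 windows between them and none for Bhlhe22. The E-box CAGATG, searched on both strands, was present in 1 of these 7 windows and in 17.2% of 32851 promoter windows. The general E-box CANNTG, which includes it, was in 3 of the 7 and in 72.3% of all windows, and CAGCTG in 1 of the 7 and in 16.3%. The CAGATG match began 218 bases before the RefSeq start site of the Atoh7 window. It is in capitals within the 30 bases printed, which lie at chr10:63099555-63099584 (+), and the GENCODE model of Atoh7 starts at position 63099651.
Atoh7 promoter: accaggccactcCAGATGgtgtgttagtta

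The control library held 13017 barcodes with a median of 9339 UMIs, and the mutant library 13880 barcodes with a median of 8702 UMIs. After filtering, 11573 control and 12623 mutant cells were kept, of which 4393 (38.0%) and 6280 (49.8%) were neural retina cells. The libraries shared 69 barcodes. Y-linked UMIs occurred in 3 control and 5273 mutant cells, and Xist UMIs in 71.7% and 27.5% of cells. The pools thus differed in sex makeup as well as genotype, and over all cells the 2 cannot be told apart. Ratios between genotypes were therefore also formed among Xist-positive cells without Y-linked UMIs. Myrf (ENSMUSG00000036098), the targeted gene, was at 77.3 UMIs per 1000000 UMIs (CPM) in control and 30.1 CPM in mutant RPE-like cells. It was at most 1.75 CPM in any neural retina class of either library. Whether the 3′ tags of Myrf fall inside the deleted part was not given in the sources used here.

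Cells were clustered without the 7 genes, other bHLH and Id genes and the naming markers, and clusters were named from markers. Retinal progenitor-like cells (2366 control, 3490 mutant) and neurogenic-like cells (808 and 1122) were followed by ganglion cell-like (427 and 536), photoreceptor-like (336 and 474), amacrine-like (215 and 339) and horizontal-like cells (92 and 115). As markers gave the names, their levels only describe the classes. The 12 neurogenic markers, which include Hes6, Dll1 and Gadd45a, summed to 5428 CPM in control neurogenic-like cells against 582 CPM in progenitor-like cells, and the 14 progenitor markers ran the other way, at 4593 and 11554 CPM. The amacrine markers did not set the amacrine-like class apart from the horizontal-like class. They summed to 2008 CPM in control and 2054 CPM in mutant amacrine-like cells and to 2618 and 2774 CPM in horizontal-like cells, while the horizontal markers stood at 2908 and 2334 CPM in amacrine-like and 4832 and 5148 CPM in horizontal-like cells. Cluster 35 of the amacrine-like class had nearly equal naming scores, 1.259 for amacrine and 1.254 for horizontal. A further cluster of 149 control and 204 mutant cells stayed unnamed. Its leading genes were Krt73, Ptf1a and Prdm13, and it carried both neurogenic markers (3502 and 3214 CPM) and amacrine markers (994 and 1105 CPM).

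Levels below are CPM of UMIs summed over the cells of a class, with exact 95% Poisson intervals in parentheses. Shares of cells are after thinning every cell to 2000 UMIs, with exact Clopper-Pearson 95% intervals where given. All intervals cover counting error only. Each gene is compared across classes and not with other genes, since 3′ tags do not scale between genes in a known way. The exception is the choice of the other bHLH and Id genes to be named, which ranks them by level.

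Each member had a restricted peak, and the class of the peak was the same in both libraries for all 7. Atoh7, Neurog2, Olig2 and Bhlhe22 were highest in neurogenic-like cells, Neurod1 and Neurod4 in photoreceptor-like cells, and Ptf1a in the unnamed cluster followed by amacrine-like cells. The intervals of the highest and the next class did not overlap for any member in either library. For Ptf1a this holds for the amacrine-like class as a whole, since its cluster 32, at 943 CPM (888 to 1001) in control and 819 CPM (774 to 867) in mutant, overlapped the unnamed cluster in its interval.

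**Figure D1:**
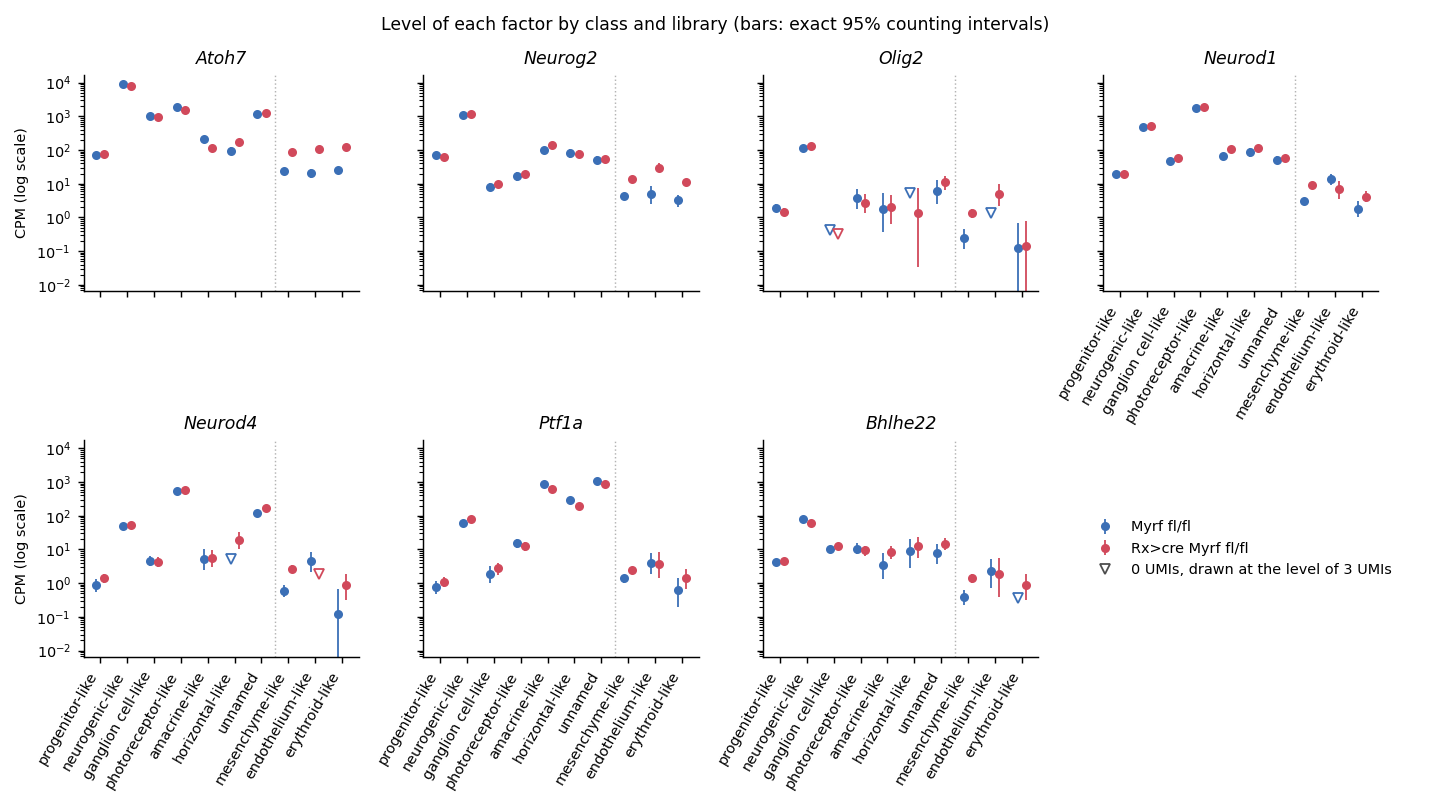
Level of each factor (CPM, log scale) by cell class in the Myrf fl/fl and the Rx>cre Myrf fl/fl library, with exact 95% Poisson intervals as bars. Atoh7 stands at 8788 and 7961 CPM in neurogenic-like cells, Neurod4 at 534 and 587 CPM in photoreceptor-like cells, and Ptf1a at 1039 and 888 CPM in the unnamed cluster.

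Atoh7, the ganglion cell competence factor, was at 8788 CPM (8727 to 8850) in control and 7961 CPM (7911 to 8012) in mutant neurogenic-like cells. A UMI was found in 94.7% and 94.8% of these cells. The level was lower in photoreceptor-like cells, at 1861 and 1573 CPM, in the unnamed cluster, at 1155 and 1229 CPM, and in ganglion cell-like cells, at 1019 and 954 CPM. Within the ganglion cell-like class it differed between the 2 clusters. The cluster led by Isl1, Igfbpl1 and Cntn2 had 1696 CPM in control and 1539 CPM in mutant cells, with a UMI in 83.4% and 78.5% of cells. The cluster led by Sncg and Nrn1, with axonal genes such as Nefl, had 16.3 and 46.9 CPM, with a UMI in 1.28% and 5.26% of cells, which is below the 23.9 and 89.8 CPM of mesenchyme-like cells.

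Cells that should lack these factors set a limit on how low levels can be read, and their level is called background here. Its source was not tested. Mesenchyme-like cells held Atoh7 at 23.9 CPM in control and 89.8 CPM in mutant, with median depths of 13566 and 14017 UMIs. The mutant level in mesenchyme-like cells was 3.76 times the control level (3.49 to 4.05), and that in erythroid-like cells 4.68 times (4.02 to 5.47), although Atoh7 did not rise in the neurogenic-like cells. All 7 members were higher in the mutant mesenchyme-like cells, by 1.72 to 5.37 times, beside 6.02% of all genes past 1.5-fold higher there. The share of neural retina cells also was higher in the mutant library. The part of that share in the background was not tested.

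Atoh7 in progenitor-like cells was at 71.4 CPM (68.2 to 74.7) in control and 78.2 CPM (75.4 to 81.2) in mutant. The mutant value is below the mesenchyme-like level of the same library, and the share of cells with a UMI was near it too, at 5.94% (5.17 to 6.79) against 5.48% (4.51 to 6.59). Over the whole class, mutant progenitor-like Atoh7 was thus not above the background. Its UMIs were unevenly spread, and cluster 4 of the class was at 128 CPM (118 to 140) with 79.4% of its Atoh7 UMIs in 5 cells, against 57.5 to 83.6 CPM in the other 3 mutant clusters. In control the share was 5.38% (4.50 to 6.38) in progenitor-like against 2.60% (2.04 to 3.27) in mesenchyme-like cells. Without thinning the shares were 15.3% and 19.5% in progenitor-like and 11.6% and 17.6% in mesenchyme-like cells.

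Neurog2, which drives neurogenic progenitors forward, was at 1085 CPM (1063 to 1107) in control and 1166 CPM (1147 to 1185) in mutant neurogenic-like cells. It was found in 48.2% (44.7 to 51.8) and 52.9% (49.9 to 55.8) of them. In both libraries its level in progenitor-like cells stood above that in mesenchyme-like cells, at 69.9 CPM (66.7 to 73.2) and 60.6 CPM (58.1 to 63.2) against 4.28 and 14.1 CPM in mesenchyme-like cells. The share of progenitor-like cells with a Neurog2 UMI was 6.76% and 6.94%, against 0.476% and 1.45% of mesenchyme-like cells.

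The proportion between the genes was also compared. For every 100 Atoh7 UMIs, neurogenic-like cells held 12.3 (12.1 to 12.6) and 14.6 (14.4 to 14.9) Neurog2 UMIs, and mesenchyme-like cells 17.9 (15.2 to 21.1) and 15.7 (14.1 to 17.4). Progenitor-like cells held 97.9 (91.7 to 104) in control and 77.5 (73.3 to 82.0) in mutant. For Neurod1 the corresponding counts in progenitor-like cells were 27.6 and 25.3, against 5.32 and 6.29 in neurogenic-like and 12.6 and 9.97 in mesenchyme-like cells. In the other classes that should lack these factors, the Neurog2 count was 23.9 and 27.7 in endothelium-like and 12.5 and 9.51 in erythroid-like cells, so Neurog2 in progenitor-like cells was above all 3. For Neurod1 it was 67.4 (41.3 to 109) in control endothelium-like cells, on 31 UMIs, which is above the control progenitor-like value, and 6.36 in mutant endothelium-like cells. Beyond the progenitor-like and neurogenic-like classes, Neurog2 was at 102 and 139 CPM in amacrine-like and 80.5 and 75.5 CPM in horizontal-like cells, and it was 8.16 and 9.86 CPM in ganglion cell-like cells, which in the mutant is below the mesenchyme-like level.

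Olig2 was concentrated in 1 class. It was at 118 CPM (111 to 126) in control and 136 CPM (130 to 143) in mutant neurogenic-like cells and at no more than 11.1 CPM in any other neural retina class. No Olig2 UMI was found in 427 control and 536 mutant ganglion cell-like cells. After thinning, 0 of 421 and 0 of 530 of these cells had a UMI, which allows shares of cells with a UMI at this depth of up to 0.713% and 0.566% (3 counts of the total). Of the Olig2-positive neural retina cells, 94.1% (88.7 to 97.4, n = 135) in control and 94.0% (90.1 to 96.7, n = 233) in mutant were neurogenic-like, against 18.5% and 17.9% of all thinned cells.

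Bhlhe22 was at 79.6 CPM (73.8 to 85.7) in control and 59.6 CPM (55.3 to 64.1) in mutant neurogenic-like cells. Elsewhere in the neural retina it lay between 3.53 and 14.8 CPM over both libraries. Although the gene is known from interneurons, it was at 3.53 and 8.33 CPM in amacrine-like cells, on 6 and 21 UMIs. Of the Bhlhe22-positive cells, 75.3% (67.6 to 82.0) were neurogenic-like in control and 61.2% (53.7 to 68.4) in mutant.

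Neurod1, a factor of photoreceptor precursors, was at 1709 CPM (1660 to 1759) in control and 1904 CPM (1859 to 1949) in mutant photoreceptor-like cells. It was found in 90.6% and 92.6% of them. Its next level was in neurogenic-like cells, at 467 and 501 CPM, with a UMI in 41.2% and 45.8% of cells. Neurod1-positive cells therefore divided between the neurogenic-like class, with 43.0% and 43.6%, and the photoreceptor-like class, with 39.4% and 37.6%.

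Neurod4, its relative, was at 534 CPM (507 to 562) and 587 CPM (562 to 612) in photoreceptor-like cells and found in 60.4% and 61.5% of them. The unnamed cluster was second, at 125 CPM (105 to 147) and 168 CPM (149 to 189), followed by neurogenic-like cells at 49.4 and 54.3 CPM. In progenitor-like cells Neurod4 was at 0.88 and 1.38 CPM, beside 0.59 and 2.69 CPM in mesenchyme-like cells. Of the Neurod4-positive cells, 68.7% and 63.9% were photoreceptor-like.

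Ptf1a, which directs amacrine and horizontal fates, was at 1039 CPM (981 to 1100) in control and 888 CPM (843 to 935) in mutant cells of the unnamed cluster. Amacrine-like cells followed, at 860 CPM (817 to 906) and 613 CPM (583 to 645), and then horizontal-like cells, at 285 CPM (243 to 333) and 196 CPM (166 to 231). After thinning, a UMI was found in 74.8% and 73.7% of the unnamed cluster, 69.9% and 61.0% of amacrine-like cells and 34.8% and 31.2% of horizontal-like cells. The unnamed cluster combined Ptf1a with Atoh7, which was found in 53.1% and 49.0% of its cells against 11.5% and 9.67% of amacrine-like cells.

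The neurogenic-like class was made of 3 clusters that differed in cell cycle genes. Cluster 24 (132 control and 189 mutant cells) had the highest level of a 12-gene G2/M list, which includes Mki67, Top2a and Ccnb1, at 14733 and 15607 CPM. Cluster 12 (272 and 411 cells) had the list at 12374 and 12547 CPM together with the highest S phase list, at 2052 and 1823 CPM. Cluster 1 (404 and 522 cells) had the G2/M list at 1226 and 1506 CPM. The members were spread unequally over these clusters.

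Neurog2 was at 1727 CPM in control and 1864 CPM in mutant cells of cluster 12, and at 499 and 556 CPM in cluster 1. Olig2 had the same order, with 212 and 249 CPM in cluster 12 against 32.9 and 40.9 CPM in cluster 1. Both were intermediate in cluster 24, at 1186 and 973 CPM for Neurog2 and 132 and 98.4 CPM for Olig2. These members thus were highest where cell cycle genes of both phases were high.

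Neurod4 and Ptf1a had the opposite order. Neurod4 was at 11.2 and 13.0 CPM in cluster 12 and at 86.7 and 112 CPM in cluster 1. Ptf1a was at 21.1 and 17.2 CPM in cluster 12 and at 108 and 175 CPM in cluster 1. Atoh7 varied less, from 7345 to 10070 CPM over the 3 control clusters and from 6733 to 9222 CPM over the 3 mutant clusters, and Neurod1 from 376 to 569 CPM and from 412 to 581 CPM.

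**Figure D2:**
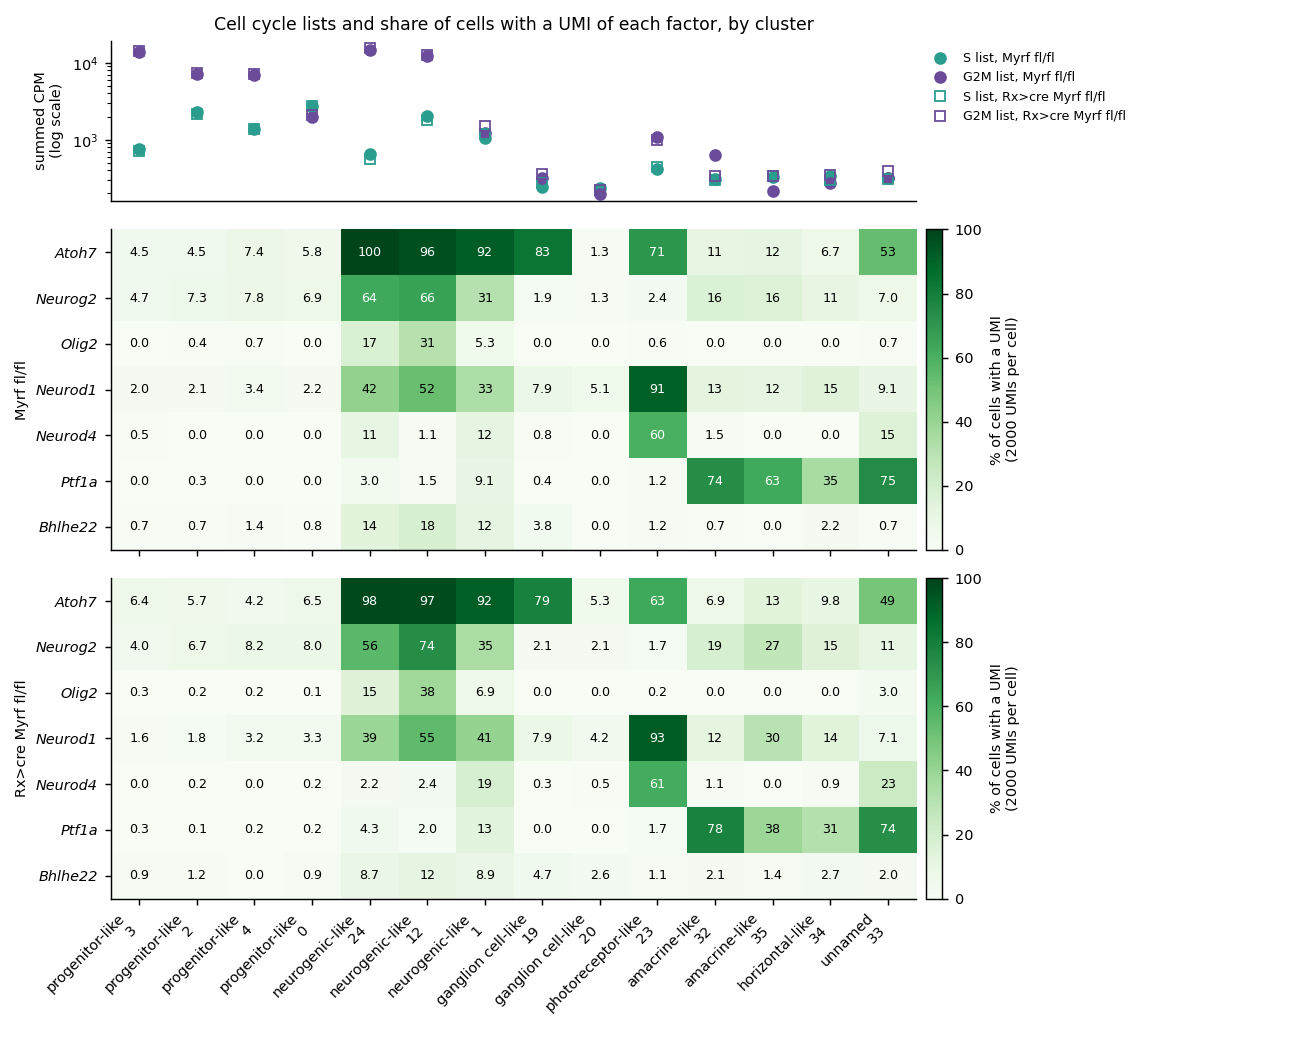
Share of cells with a UMI of each factor (percent, cells thinned to 2000 UMIs) by cluster of the neural retina classes, for Myrf fl/fl (control) and for Rx>cre Myrf fl/fl (mutant). Olig2 is found in 30.9% and 38.0% of cluster 12 and 5.32% and 6.90% of cluster 1, and Ptf1a in 1.49% and 1.95% of cluster 12 and 9.11% and 13.2% of cluster 1.

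The G2/M list was also compared between cells chosen by the factor itself. Olig2-positive neural retina cells had the G2/M list at 10667 CPM in control and 10410 CPM in mutant, against 4755 and 5034 CPM over all neural retina cells. Neurog2-positive cells followed, at 7333 and 7365 CPM, and Bhlhe22-positive cells were at 6550 and 6225 CPM. Atoh7-positive cells, at 4415 and 4952 CPM, and Neurod1-positive cells, at 4302 and 4353 CPM, were slightly below all cells. Neurod4-positive cells were at 1558 and 1072 CPM and Ptf1a-positive cells at 672 and 812 CPM. With 2 UMIs required and no thinning these values rose to 2566 and 2237 CPM for Neurod4 and 1716 and 1378 CPM for Ptf1a, beside 5485 and 5761 CPM over all neural retina cells, and Neurod1-positive control cells, at 5578 CPM, were then slightly above all cells. Within the neurogenic-like class, after thinning, Neurod1-positive cells were above all cells of the class, at 8293 and 8401 CPM against 6907 and 7614 CPM. Neurod4-positive cells were at 4635 and 2361 CPM and Ptf1a-positive cells at 2920 and 2693 CPM. With 2 UMIs required and no thinning, all cells of the class were at 7891 and 8778 CPM and Neurod1-positive cells at 9431 and 9832 CPM. Neurod4-positive cells were then nearer to all cells, at 6211 and 4979 CPM, as were Ptf1a-positive cells, at 5791 and 4482 CPM.

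Notch ligands (Dll1, Dll3, Dll4, Jag1, Jag2), the signals by which neurogenic cells restrain their neighbours, were higher in the cells positive for 6 of the 7 members than over all neural retina cells. Their summed level was 478 and 515 CPM in Olig2-positive, 393 and 363 CPM in Neurog2-positive and 343 and 322 CPM in Neurod1-positive cells, against 116 and 114 CPM in all neural retina cells. Bhlhe22-positive cells were at 293 and 278 CPM, Neurod4-positive cells at 290 and 283 CPM and Atoh7-positive cells at 249 and 256 CPM. In Ptf1a-positive cells the level was 89.6 and 106 CPM. Dll1, Dll3 and Dll4 were among the naming markers of the neurogenic-like class, and these values move with the classes the positive cells came from. Within the neurogenic-like class, where all cells were at 357 and 358 CPM, Neurog2-positive cells were at 533 and 512 CPM, Olig2-positive cells at 504 and 525 CPM, Neurod1-positive cells at 515 and 492 CPM and Neurod4-positive cells at 516 and 468 CPM. Atoh7-positive cells, at 348 and 360 CPM, and Bhlhe22-positive cells, at 354 and 394 CPM, were nearer to all cells of the class, and Ptf1a-positive cells were below them, at 284 and 301 CPM.

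**Figure D3:**
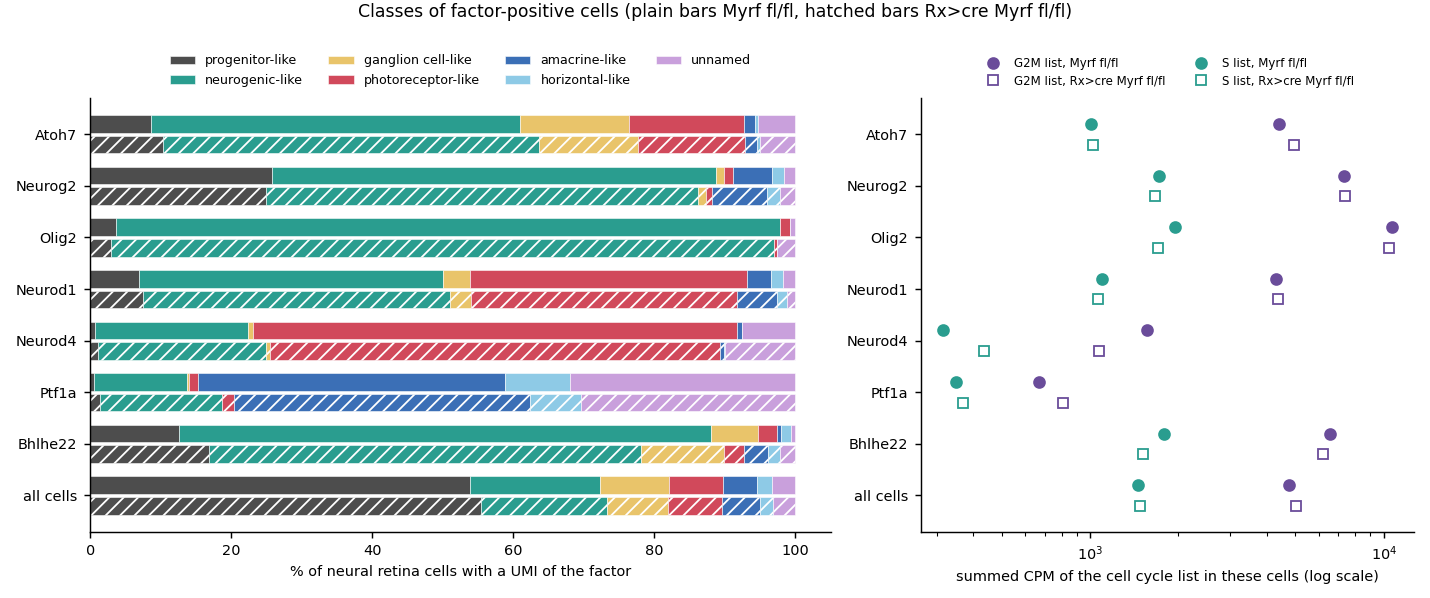
Left, classes of the neural retina cells with a UMI of each factor (percent, thinned cells, plain bars Myrf fl/fl and hatched bars Rx>cre Myrf fl/fl). Right, summed CPM (log scale) of the S phase and G2/M lists in the same cells, where Olig2-positive cells reach 10667 and 10410 CPM of the G2/M list and Ptf1a-positive cells 672 and 812 CPM.

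Co-expression was examined over all 21 pairs of members in 4311 control and 6159 mutant thinned neural retina cells. The count of cells with a UMI of both members was divided by the count given by the product of their shares. In 12 pairs this ratio was above 1 with its counting interval in both libraries, and in 3 pairs it was below. Pooling classes of different makeup alone moves such ratios, so the same pairs were also counted within the neurogenic-like class.

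Over the neural retina, Neurog2 and Olig2 were found together in 120 control cells where 19.1 were given by their shares, a ratio of 6.28 (5.21 to 7.51). In the mutant there were 204 such cells against 35.9, a ratio of 5.68 (4.92 to 6.51). Neurod1 and Neurod4 had ratios of 4.43 and 4.20, and Olig2 and Bhlhe22 5.11 and 3.86. The pairs below 1 all held Ptf1a. With Olig2 the ratio was 0.286 and 0.330, with Bhlhe22 0.172 and 0.360, and with Neurod1 0.557 and 0.665, though this last pair moved to 1.18 and 1.07 without thinning. With a mitochondrial limit of 5%, among Xist-positive cells without Y-linked UMIs, or after thinning to 1000 or 4000 UMIs, the count of pairs below 1 with their interval in both libraries was 1 instead of 3.

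Within the neurogenic-like class (796 control and 1101 mutant thinned cells) most Olig2-positive cells were also Neurog2-positive, in 92.9% and 90.9% of cases, against 48.2% and 52.9% of all cells of the class. The reverse was less complete. Of the Neurog2-positive cells, 30.7% (26.1 to 35.6) and 34.2% (30.3 to 38.2) had Olig2, and of the Neurog2-negative cells 2.18% (1.00 to 4.11) and 3.85% (2.37 to 5.89).

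Neurod1 also ran with Neurog2 within the class. Of the Neurod1-positive cells, 80.5% in control and 77.8% in mutant had Neurog2, against 48.2% and 52.9% of all cells of the class, with ratios to the product of shares of 1.67 (1.47 to 1.88) and 1.47 (1.33 to 1.62). The other pairs with a ratio above 1 in both libraries were Olig2 with Neurod1 (1.85 and 1.54), Neurod1 with Bhlhe22 (1.44 and 1.36), Neurog2 with Bhlhe22 (1.28 and 1.32) and Neurod4 with Ptf1a (2.58 and 1.97). Atoh7 had ratios between 0.977 and 1.06 with every other member. Since it was present in 94.7% and 94.8% of cells of the class, its ratios had little room above 1. They cannot show whether Atoh7 ran with any member, only that none was set apart from it.

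Ptf1a was set apart from Neurog2 and Neurod1 within the class. Ptf1a and Neurog2 met in 3 control cells where 21.2 were given by their shares, a ratio of 0.141 (0.0291 to 0.413). In the mutant they met in 12 cells against 43.9, a ratio of 0.274 (0.141 to 0.478). Ptf1a and Neurod1 met in 2 cells against 18.1 and in 8 against 38.0, with ratios of 0.110 (0.0134 to 0.398) and 0.211 (0.0909 to 0.415). Ptf1a and Bhlhe22 met in 1 control cell against 6.25 and in 0 mutant cells against 8.22.

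Since Neurog2 and Ptf1a differ between the clusters of the class, the pairs were also counted in cluster 1 alone. There Ptf1a with Neurog2 had ratios of 0.180 (0.0218 to 0.650) and 0.301 (0.121 to 0.620), and Ptf1a with Neurod1 of 0.166 (0.0201 to 0.601) and 0.183 (0.0593 to 0.427). Neurog2 with Neurod1 kept ratios of 2.01 (1.60 to 2.50) and 1.64 (1.36 to 1.97). The ratios of Neurod4 with Ptf1a were 1.91 and 1.21, and their intervals included 1. In photoreceptor-like cells no pair had an interval that left out 1 in either library. Neurod1 was in 90.6% and 92.6% of these cells, and Neurog2, Olig2, Ptf1a and Bhlhe22 were each in 8 or fewer per library. Pairs with any of these members had little room to leave out 1, so no conclusion is drawn from them.

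**Figure D4:**
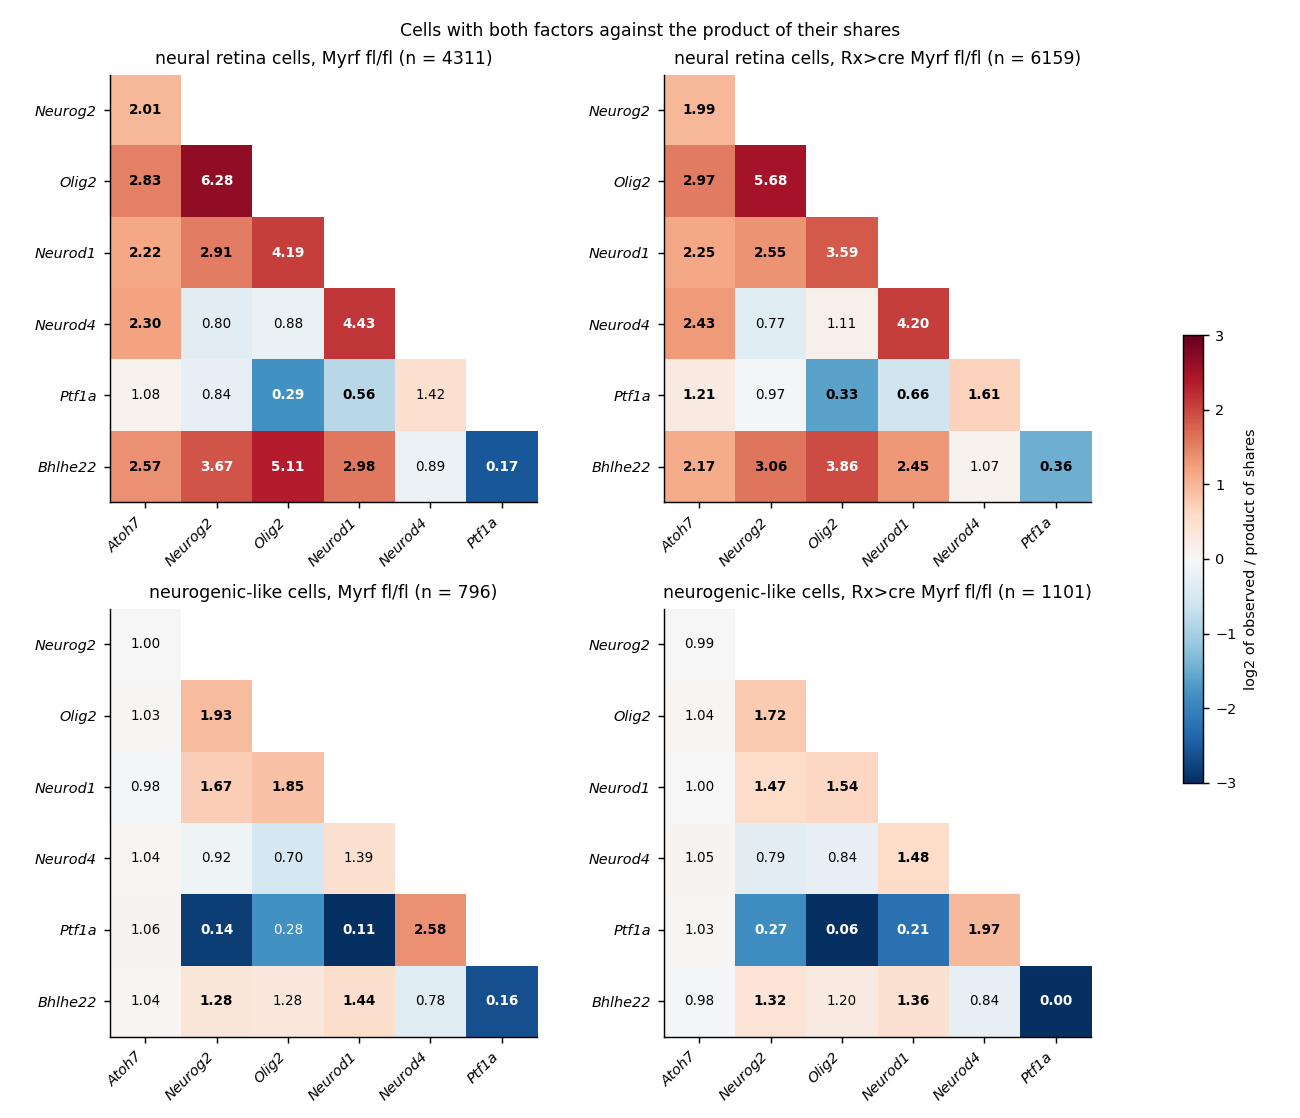
Ratio of the cells with both factors to the count given by the product of their shares, for all 21 pairs, in neural retina and in neurogenic-like cells of each library (colour: log2 of the ratio, numbers: the ratio, bold where the 95% counting interval leaves out 1). Neurog2 and Olig2 stand at 1.93 and 1.72 and Neurog2 and Ptf1a at 0.141 and 0.274 within the neurogenic-like class.

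Many single cells held several members. After thinning, 41.6% of control and 47.6% of mutant neurogenic-like cells had UMIs of 3 or more members, and 43.8% and 44.0% of photoreceptor-like cells. None of the 7 was found in 87.7% and 86.0% of progenitor-like cells, beside 96.6% and 93.0% of mesenchyme-like cells. In ganglion cell-like cells none was found in 42.5% and 42.8%.

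The genotypes were then compared class by class. A ratio of mutant to control CPM was formed where both libraries together held at least 20 UMIs, which left 44 member and class ratios in the neural retina. In neurogenic-like cells 0 of the 7 members passed 1.5-fold in either direction, beside 6.61% of 12213 genes. In ganglion cell-like cells it was 0 of 6, beside 7.27% of genes, and in photoreceptor-like cells 0 of 7, beside 9.37%. In progenitor-like cells Neurod4 alone passed (1 of 7, beside 5.41% of genes), at 1.58 times (0.94 to 2.71) on 23 and 50 UMIs. Its interval includes 1, and it stayed past 1.5-fold in 5 of 8 alternatives. The mutant level, 1.38 CPM, is below the 2.69 CPM of mutant mesenchyme-like cells.

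The median log2 ratio of the members in neurogenic-like cells was 0.10, against -0.024 over all genes tested. Atoh7 was at 0.91 times the control level (0.90 to 0.91), Neurog2 at 1.07 (1.05 to 1.10), Olig2 at 1.15 (1.06 to 1.245), Neurod1 at 1.07 (1.03 to 1.11) and Neurod4 at 1.10 (0.97 to 1.24). The clusters of the class differed in direction for 4 of these members. In cluster 24 the ratios were below 1, at 0.821 (0.773 to 0.872) for Neurog2, 0.745 (0.617 to 0.900) for Olig2, 0.854 (0.777 to 0.939) for Neurod1 and 0.608 (0.415 to 0.889) for Neurod4, whereas in clusters 12 and 1 the ratios of these 4 ran from 1.02 to 1.29. Atoh7 was below 1 in all 3, at 0.815, 0.916 and 0.917 in clusters 24, 12 and 1. For Bhlhe22 the class ratio was 0.75 (0.67 to 0.83). It was lower in the mutant in each of the 3 clusters, at 0.73 times (0.54 to 0.99) in cluster 24, 0.77 times (0.66 to 0.90) in cluster 12 and 0.72 times (0.61 to 0.85) in cluster 1. Among Xist-positive cells without Y-linked UMIs its log2 ratio was -0.37, against -0.42 over all cells. Its share of positive neurogenic-like cells was 14.2% (11.8 to 16.8) in control and 9.90% (8.20 to 11.8) in mutant.

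Ptf1a differed between the classes. It was at 1.34 times the control level (1.21 to 1.49) in neurogenic-like cells and, within them, at 1.61 times (1.43 to 1.82) in cluster 1 and at 0.81 times (0.58 to 1.13) in cluster 12. In the classes where it is highest the mutant was lower, at 0.855 times (0.791 to 0.924) in the unnamed cluster, 0.71 times (0.66 to 0.77) in amacrine-like and 0.69 times (0.55 to 0.87) in horizontal-like cells. Within the amacrine-like class it was at 0.87 times (0.80 to 0.94) in cluster 32 and at 0.48 times (0.41 to 0.56) in cluster 35, and cluster 35 held 34.9% and 43.4% of the class. The difference between classes was not tested. The log2 ratio in neurogenic-like cells, 0.42, turned to -0.0407 with classes from marker scores and to -0.19 among Xist-positive cells without Y-linked UMIs, and that in horizontal-like cells moved from -0.54 to -1.20 with a mitochondrial limit of 5%.

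In amacrine-like cells 3 of 6 members passed 1.5-fold, beside 11.5% of genes. Neurod1 was at 1.61 times (1.29 to 2.01), from 68.2 to 110 CPM. It was at 1.07 times (0.79 to 1.46) in cluster 32 and at 2.27 times (1.60 to 3.28) in cluster 35. Its log2 ratio moved from 0.68 to 0.0051 with doublets kept, and it stayed past 1.5-fold in 3 of 8 alternatives. Bhlhe22 was at 2.36 times (0.92 to 7.16) on 6 and 21 UMIs. Atoh7 was at 0.56 times (0.48 to 0.66), but the 5 richest cells held 86.4% of its control and 62.8% of its mutant UMIs, and without them its log2 ratio turned from -0.84 to 0.59. In horizontal-like cells 1 of 4 passed, beside 16.7% of genes. That was Atoh7 at 1.74 times (1.26 to 2.44), with 81.8% and 90.2% of its UMIs in 5 cells, and its log2 ratio turned from 0.80 to -0.13 without them. In the unnamed cluster Olig2 and Bhlhe22 passed (2 of 7, beside 13.3% of genes), on 7 and 18 and on 9 and 24 UMIs, and both turned below 1 with doublets kept.

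In photoreceptor-like cells Neurod1 was at 1.11 times the control level (1.07 to 1.16), Neurod4 at 1.10 times (1.03 to 1.17) and Atoh7 at 0.85 times (0.81 to 0.88). In progenitor-like cells Neurog2 was at 0.867 times (0.815 to 0.923). By cluster it was at 0.729 (0.653 to 0.813) in cluster 2 and 0.791 (0.676 to 0.927) in cluster 4. It was at 0.996 (0.843 to 1.18) in cluster 3 and 0.990 (0.892 to 1.10) in cluster 0. Of the neural retina cells, 53.9% in control and 55.6% in mutant were progenitor-like, 18.4% and 17.9% neurogenic-like, 9.72% and 8.54% ganglion cell-like, 4.89% and 5.40% amacrine-like and 2.09% and 1.83% horizontal-like. With 1 pool per genotype, no ratio can be set against the spread between embryos.

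**Figure D5:**
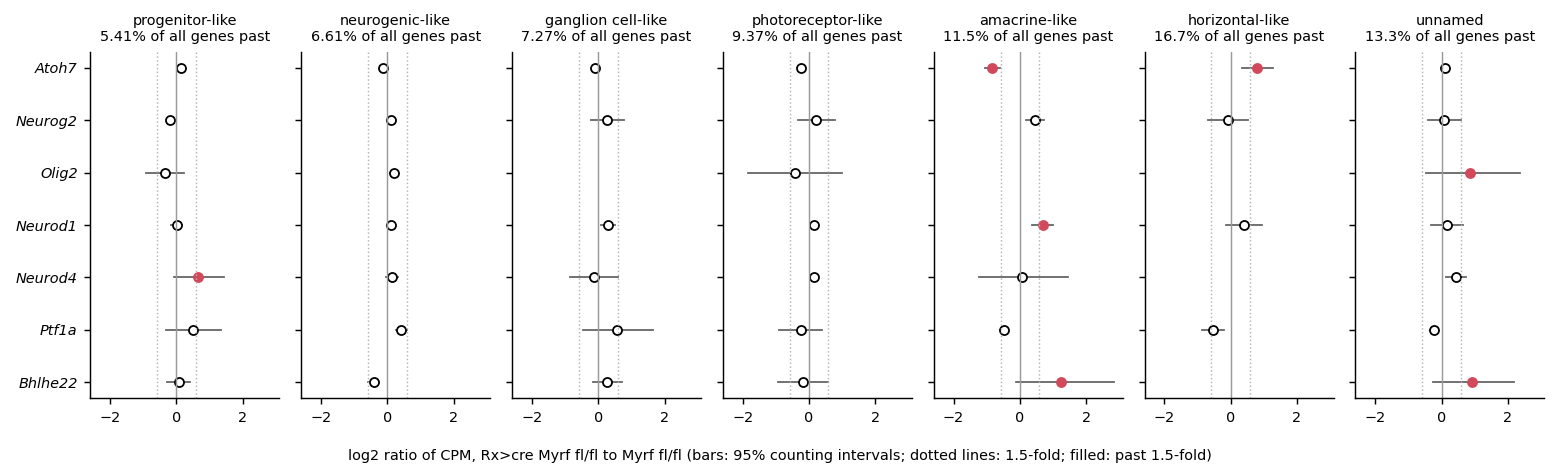
Log2 ratio of CPM, Rx>cre Myrf fl/fl to Myrf fl/fl, of each factor in the neural retina classes (bars: exact 95% counting intervals, dotted lines: 1.5-fold). All 7 factors lie within 1.5-fold in neurogenic-like and photoreceptor-like cells, and 7 of 44 ratios lie outside it, beside 5.41% to 16.7% of all genes, depending on the class.

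Other bHLH and Id genes were taken as a list of 28. Among the 5 highest in neurogenic-like cells were Hes6, Hes5, Tcf4 and Id1. Hes6, which opposes Hes1 and was among the naming markers of the neurogenic-like class, was at 1772 CPM in control and 1945 CPM in mutant neurogenic-like cells against 345 and 371 CPM in progenitor-like cells. Hes5, a Notch effector, was at 1234 and 1314 CPM against 706 and 739 CPM. Tcf4, which encodes an E protein, was at 329 and 334 CPM against 196 and 199 CPM. Id1, which encodes an inhibitor of E protein binding, had the reverse order, with 208 and 212 CPM against 376 and 384 CPM. Between genotypes, 1 of 20 list genes with enough UMIs passed 1.5-fold in progenitor-like cells (Bhlhe40, 11 and 24 UMIs), beside 5.41% of all genes. In neurogenic-like cells 2 of 22 passed, beside 6.61% of all genes (Neurog1, lower on 37 and 28 UMIs, and Olig1, higher on 5 and 16 UMIs). These counts do not set the list apart from all genes.

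The genes whose pattern was most like each member were named by Pearson correlation of log2(CPM + 10) over 66 sums of a cluster in a library. The sums share 2 libraries, so the values are descriptive. For Atoh7 they were Gadd45a (r = 0.90), Insm2, Dlx2, Dll3 and Pkib, and for Neurod1 they were 3110035E14Rik (r = 0.93), Dll3, Btg2, Insm1 and Igsf21. For Neurog2 they were Zc3h12c (r = 0.86), Mybl1, the member Olig2, Hes6 and Tff3. Olig2 was most like Sstr2 (r = 0.96), a somatostatin receptor gene, followed by Tff3, Hes2, Mybl1 and Elfn1, and Bhlhe22 was most like Sstr2 (r = 0.88), Insm2, Mybl1, Dlx2 and the member Olig2.

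Neurod4 was most like Ankrd33b (r = 0.95), Slc1a2, Plcd4, Drd1 and Magel2. Ptf1a was most like Ipcef1 (r = 0.97), Prdm13 (r = 0.96), Gm13344, St18 and Pgbd5. Prdm13 encodes a regulator of amacrine fate and was among the naming markers of that class. Among the members themselves, the correlations of Ptf1a with the others ran from 0.21 with Olig2 to 0.50 with Neurod1.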

How the data were processed

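The authors deposited a matrix of unnormalized UMI counts (genes by barcodes) for 1 library of each genotype. The submitters' processing notes name Cell Ranger 7.1.0, Seurat 4.1.1 and mm10, whereas the matrix headers give Cell Ranger 3.1.0. Barcodes with under 200 genes or over 15% mitochondrial UMIs were removed. Scrublet (scanpy 1.11.5) found no usable automatic threshold in the mutant, so a score of 0.2, set after seeing the data, was used for both libraries and removed 369 control (3.09%) and 395 mutant (3.03%) barcodes. Counts scaled to 10000 per cell were log-transformed and both libraries clustered together (2000 variable genes before exclusions, 30 components, 15 neighbours, Leiden resolution 1). Amacrine-like and horizontal-like cells were then subclustered (resolution 0.5, chosen after seeing the data), which gave 36 clusters in all. The names rebuild cell classes from markers and can differ from the study's. Of the 36 clusters 7 stayed unnamed. Cluster 33 is described as the unnamed cluster, and the other 6 held 22.6% of control and 22.2% of mutant cells.

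The members and lists were chosen with earlier results of these data known. UMIs were summed per class and library as CPM. With 1 library per genotype no test was run. Ratios carry exact conditional binomial 95% intervals, which assume independent UMIs. Ratios past 1.5-fold with at least 20 UMIs were counted. All 7 members were named. The 5 genes most like each member came from genes with at least 200 UMIs and sums of at least 50 cells. Of the 28 other bHLH and Id genes, those past the fold in progenitor-like or neurogenic-like cells and the 5 highest in neurogenic-like cells were named, except 1 that is not reported here. Gene models were GENCODE on GRCm38. Scripts were tested on simulated data.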

Additional observations from a re-analysis of the deposited data

How the results depend on the processing

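Among the 6 named classes, that in which a member was highest did not change in any of the 6 alternatives that gave a value (14 of 14 member and library pairs in each). The unnamed cluster was left out of this count, so it gives amacrine-like cells as the highest class for Ptf1a. Removing cells over 2000 UMIs, a limit that the study's methods state, takes out 79.1% of control and 80.6% of mutant barcodes. Under it the log2 ratio of mutant to control changed from -0.14 to 0.71 for Atoh7 and from 0.10 to -0.17 for Neurog2 in neurogenic-like cells and from 0.16 to -0.17 for Neurod1 in photoreceptor-like cells, 1 ratio instead of 7 passed 1.5-fold, and no pair counts remained above or below the product of shares (0 in each case). Single co-detection ratios fell to 0 in control (Atoh7 with Neurod4, Neurog2 with Bhlhe22, and Neurod1 with Neurod4 or Bhlhe22) and in mutant (Olig2 with Bhlhe22, and with Neurod1 also among neurogenic-like cells), to 0.96 for Neurog2 with Neurod1 in control neurogenic-like cells, and to 0.82 and 0.60 for Atoh7 with Neurod4 and Ptf1a in mutant. The cause was not tested beyond the number of cells left.

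With classes from marker scores the log2 ratio was -0.11 for Atoh7 and 0.045 for Neurog2 in neurogenic-like cells, 0.032 for Neurod4 in photoreceptor-like cells, -0.33 for Ptf1a in amacrine-like cells (-0.49 as reported) and -0.20 for Atoh7 in horizontal-like cells (0.80 as reported). Among Xist-positive cells without Y-linked UMIs it was 0.31 for Neurog2 and 0.34 for Olig2 in neurogenic-like cells and -0.89 for Atoh7 in horizontal-like cells. Ptf1a in amacrine-like cells was at -0.37 with a mitochondrial limit of 5% and -0.26 with doublets kept, where Olig2 and Bhlhe22 in the unnamed cluster were at -0.32 and -0.23. Median-ratio scaling gave -0.12 for Atoh7 in neurogenic-like and 0.22 for Neurod1 in photoreceptor-like cells, and Leiden resolution 1.5 gave -0.17 for Atoh7. Without the 5 richest cells Atoh7 was at 0.59 in amacrine-like and -0.13 in horizontal-like cells. Bhlhe22 in neurogenic-like cells stayed between -0.45 and -0.37 in its 8 alternatives.

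The 7 ratios past 1.5-fold became 12 with doublets kept, 4 with a minimum of 50 UMIs, 18 at the lower fold tried and 1 at 2-fold. The share of all genes past the fold was formed only for the results as reported. The counts in these alternatives therefore cannot be set against genes at large. The 3 neural retina pairs below the product of shares became 1 with a mitochondrial limit of 5%, among the Xist-positive cells (where Ptf1a with Bhlhe22 was at 1.00 in mutant) and after thinning to 1000 or 4000 UMIs. Among neurogenic-like cells the 6 pairs above became 3 among the Xist-positive cells and with thinning to 1000 UMIs, and the 3 below became 5 with thinning to 4000 UMIs or none. Neurod1 with Ptf1a over the neural retina was at 1.18 and 1.07 without thinning. The G2/M level of all 14 sets of positive cells moved upward with 2 UMIs required and no thinning. The causes were not tested. No paired analysis was possible because each genotype has 1 library. Members with few UMIs in a class, and the background of the mutant library, limit what low levels can show.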

Other observations

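Unnamed clusters of low depth also held members. In cluster 21 (1064 control and 1184 mutant cells, median 1324.5 and 1477 UMIs) Atoh7 was at 1147 CPM in control and 1014 CPM in mutant, Neurog2 at 164 and 151 CPM and Olig2 at 22.4 and 17.2 CPM. In cluster 26 (250 and 300 cells, median 1222 and 1083 UMIs) Atoh7 was at 3267 and 2962 CPM, Ptf1a at 183 and 245 CPM, Neurod1 at 102 and 158 CPM and Neurod4 at 48.8 and 87.2 CPM. These cells entered no comparison between classes or genotypes, but their sums were among the 66 behind the correlations between genes.

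Among the Hes and Id genes of the list, Hes1, a naming marker of the progenitor-like class, was at 567 CPM in control and 628 CPM in mutant progenitor-like cells against 67.1 and 75.4 CPM in neurogenic-like cells, and Id3 at 827 and 783 CPM against 65.7 and 74.9 CPM. Hey1 had the reverse order, at 19.2 and 22.6 CPM in progenitor-like and 51.1 and 47.7 CPM in neurogenic-like cells. Neurod2 and Neurod6 had no UMI in progenitor-like or neurogenic-like cells of either library.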
